A study of Homo sapiens with 5 samples.

Results

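The genes described here are those of the solute carrier (SLC) superfamily in KM-H2, an established line of Hodgkin lymphoma cells, after 16 hours in 30 uM LY294002 (2 arrays) or in its solvent DMSO (3 arrays). A morpholine compound, LY294002 is used to inhibit phosphoinositide 3-kinase (PI3K), and it also binds mTOR and BET bromodomain proteins. Every culture was in RPMI1640 with serum and antibiotics, and 1 array of the planned triplicates was excluded for high background, per the series design. A gene belonged to the set when a probe set carried its symbol alone and that symbol began with SLC and a digit. The serotonin carrier SLC6A4 was left out by the same rule, and a gene with more than 1 probe set was represented by its brightest. This gave 169 of the 7713 genes with a name on the array. In 79 of the 169, the mean of at least 1 group reached the median of that group's arrays. These medians were 6.28 with LY294002 and 6.27 with DMSO on the log2 scale. By name, 3 of the 169 are not carriers: SLC2A4RG, SLC67A1-AS and SLC26A10P. Of these, SLC2A4RG and SLC67A1-AS are among the 79. They remain in the counts, shares and medians of the 169 and the 79. The labels do not say whether replicates came from separate cultures, so p-values and errors cover the spread among the 5 arrays, and this may be technical.

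Solute carriers are membrane proteins that move small molecules across the cell surface and the membranes of organelles. Glucose enters most cells through the GLUT proteins of the SLC2 family, and lactate leaves through the monocarboxylate carriers of SLC16. Amino acids cross through SLC1, SLC7 and SLC38 carriers, the inner mitochondrial membrane holds the SLC25 family, and zinc moves through SLC30 and SLC39 proteins. PI3K, AKT and mTOR signalling is known to promote the uptake of glucose and amino acids, in part by moving carriers to the cell surface, which an RNA measurement does not show.

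No carrier gene differed between LY294002 and DMSO at the threshold used, a limma adjusted p of 0.05 over all 8746 probe sets. The count was 0 of the 79 genes above the array median and 0 of all 169, where 1.59% of all genes above the array median and 0.908% of all genes passed. At an unadjusted p under 0.05 there were 13 of the 79, 3 higher and 10 lower with LY294002, against 26.6% of all genes above the array median. Among all 169 there were 17, against 17.1% of all genes. SLC29A1, the equilibrative nucleoside carrier of the plasma membrane, had the lowest adjusted p, 0.0504, on the other side of the threshold from several alternative settings. Differences were small: the median size among the 79 was 0.08 on the log2 scale, against 0.12 for all genes above the array median. The ends were -0.50 for SLC29A1 and 0.54 for SLC4A2, a chloride and bicarbonate exchanger.

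The spread among the 5 arrays, which may be technical, sets the intervals of these differences. For 78 of the 79 genes the 95% interval of the difference, taken from the limma fit without adjustment, lay inside a 2-fold difference in either direction. The exception was SLC39A8, a zinc and manganese carrier, with an interval of -1.04 to 0.07. For 64 of the 79 the interval lay inside 0.5 on the log2 scale. A p that misses the threshold does not show that a gene was the same in both groups, and these intervals give the range that the arrays allow.

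Groups did not overlap in 31 of the 79 genes, against 40.7% of all genes above the array median. In 21 both treated arrays lay below all solvent arrays, or 26.6% of the 79 against 15.7% of all genes above the limit, and in 10 they lay above, or 12.7% against 25.0%. Among all 169 the groups did not overlap in 48, against 29.6% of all genes: 37 lay below and 11 above, against backgrounds of 13.4% and 16.2%. These counts are a description of the set and were given no test.

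The promoters of 4 carriers are shown because their differences had the lowest p in each direction, 2 lower and 2 higher with LY294002, among carriers with a difference of at least 0.2 and no overlap between groups. Each runs 5′ to 3′ from 250 bases before to 50 bases after the start of the gene, from RefSeq on GRCh38.p14. All 4 lie on the plus strand: SLC29A1 at chr6:44219365-44219664, SLC25A5 at chrX:119468194-119468493, SLC30A9 at chr4:41990280-41990579 and SLC4A2 at chr7:151057950-151058249. Capitals mark matches on either strand to TGATGNAA (the element of ATF4 and C/EBP factors), CACGTG (the E-box), GTAAACA (the forkhead core) or TGCNCNC (the metal response core).
SLC29A1: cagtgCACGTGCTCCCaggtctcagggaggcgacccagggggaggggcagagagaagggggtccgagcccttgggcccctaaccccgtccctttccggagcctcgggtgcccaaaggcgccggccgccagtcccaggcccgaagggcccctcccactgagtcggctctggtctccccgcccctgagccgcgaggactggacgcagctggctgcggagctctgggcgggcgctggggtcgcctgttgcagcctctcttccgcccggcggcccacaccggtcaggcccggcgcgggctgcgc
SLC25A5: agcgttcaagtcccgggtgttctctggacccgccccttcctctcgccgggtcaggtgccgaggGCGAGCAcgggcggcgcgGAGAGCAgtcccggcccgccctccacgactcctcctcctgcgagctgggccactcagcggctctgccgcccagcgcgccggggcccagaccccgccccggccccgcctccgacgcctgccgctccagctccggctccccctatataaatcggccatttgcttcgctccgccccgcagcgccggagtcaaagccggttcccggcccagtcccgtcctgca
SLC30A9: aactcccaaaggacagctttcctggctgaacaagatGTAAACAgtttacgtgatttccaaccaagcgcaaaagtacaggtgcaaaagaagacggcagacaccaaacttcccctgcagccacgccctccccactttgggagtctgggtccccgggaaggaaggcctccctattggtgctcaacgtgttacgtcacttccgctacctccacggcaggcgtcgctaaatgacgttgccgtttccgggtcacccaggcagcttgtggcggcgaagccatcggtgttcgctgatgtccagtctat
SLC4A2: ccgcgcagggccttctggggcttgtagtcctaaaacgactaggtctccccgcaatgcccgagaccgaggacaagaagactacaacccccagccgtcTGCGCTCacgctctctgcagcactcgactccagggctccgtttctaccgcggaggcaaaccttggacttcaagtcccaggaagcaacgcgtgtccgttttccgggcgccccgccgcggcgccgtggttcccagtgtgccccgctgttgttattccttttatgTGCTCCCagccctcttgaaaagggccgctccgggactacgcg
SLC29A1 held 1 E-box that overlaps 1 metal response core, SLC25A5 and SLC4A2 held 2 metal response cores each, and SLC30A9 held 1 forkhead core. The metal response core is loose and was present in 55.2% of the 27305 promoters of the same length in the table, against 7.43% for the E-box, 3.67% for the ATF4 element and 3.41% for the forkhead core. Promoters were at hand for 70 of the 79 genes, of which 8 held an E-box, 7 an ATF4 element, 1 a forkhead core and 40 a metal response core. Of the genes whose LY294002 arrays lay below all DMSO arrays, 20 had a promoter, of which 2 held an E-box, 3 an ATF4 element, 0 a forkhead core and 13 a metal response core. Of the 10 on the other side, 1 held an E-box, 0 an ATF4 element, 1 a forkhead core and 3 a metal response core. These are matches of letters in a short window and were given no test.

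SLC29A1 imports nucleosides and is the main entry route of many nucleoside drugs. Its log2 values were 8.35 and 8.26 with LY294002, and 8.86, 8.83 and 8.72 with DMSO. Both treated arrays lay below all solvent arrays, with a gap wider than the spread inside either group. The difference was -0.50 ± 0.06 (SE), or 1.42-fold lower with LY294002, and its 95% interval ran from -0.66 to -0.35. The limma adjusted p was 0.0504, and over the other settings with moderated variance it ran from 0.00723 to 0.348. In the same class of nucleoside and nucleotide sugar carriers, SLC28A1, a sodium-coupled nucleoside carrier, was at 6.35 and 6.32 with LY294002, against 6.44, 6.40 and 6.47 with DMSO (difference -0.10 ± 0.03 SE, limma adjusted p = 0.242). SLC35A2, which carries UDP-galactose into the Golgi, was at 7.28 and 6.65 with LY294002, against 6.55, 6.48 and 6.57 with DMSO. LY294002 replicate 1 carried most of that difference: it was 0.44 ± 0.20 (SE, limma adjusted p = 0.377) with both treated arrays and 0.12 without replicate 1. The other 4 of the 7 genes above the array median in this class lay between -0.08 and 0.23, and their groups overlapped.

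**Figure D1:**
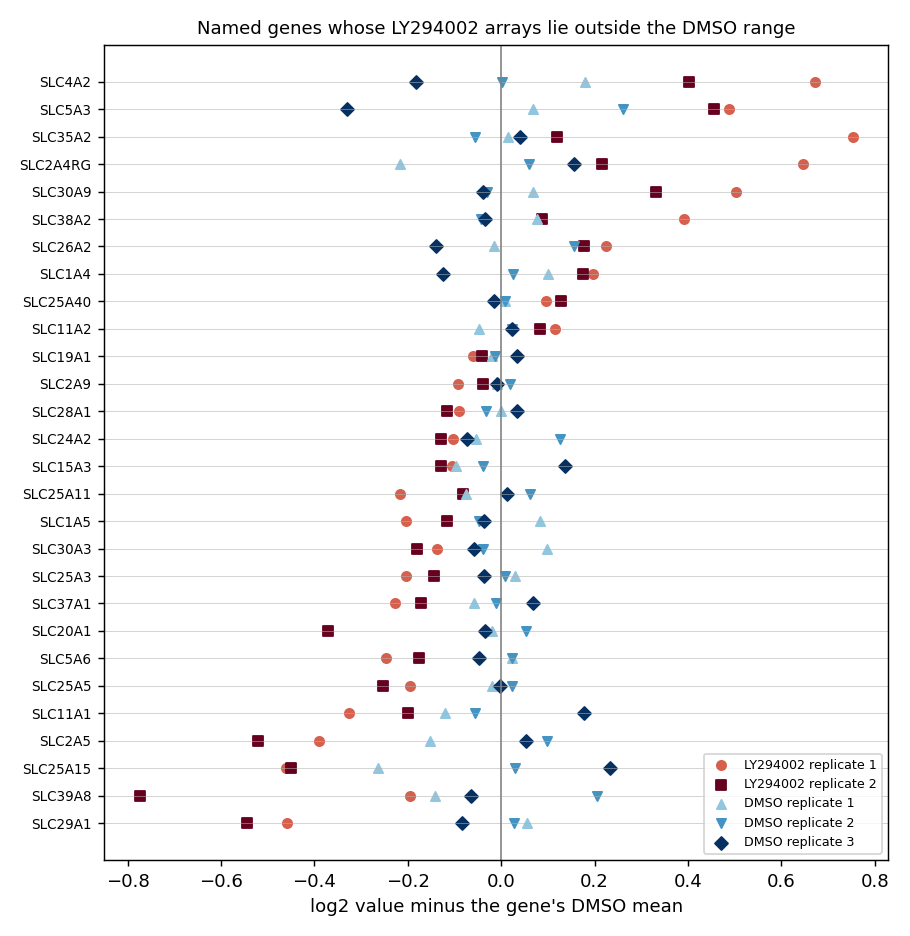
Log2 value minus the gene's DMSO mean (x axis) for each of the 5 arrays in the named genes whose LY294002 arrays both lie outside the DMSO range; red symbols are LY294002 arrays and blue symbols DMSO arrays. SLC29A1 and SLC30A9 show a wide gap between groups, while in SLC35A2, SLC2A4RG and SLC39A8 the 2 LY294002 arrays lie far apart.

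Among the carriers of glucose and other sugars, 16 were measured and 8 reached the array median. SLC2A5, the fructose carrier GLUT5, was at 7.40 and 7.27 with LY294002, and at 7.64, 7.89 and 7.84 with DMSO. The treated arrays lay below all solvent arrays, and the difference was -0.46 ± 0.09 (SE, limma adjusted p = 0.117, 95% interval -0.71 to -0.21). Over the other settings with moderated variance its limma adjusted p ran from 0.0233 to 0.491. SLC37A1, an antiporter of glucose 6-phosphate and phosphate, was at 6.39 and 6.44 with LY294002, against 6.56, 6.60 and 6.68 with DMSO (difference -0.20 ± 0.05 SE, limma adjusted p = 0.158). SLC2A9, a urate carrier of the GLUT family, was at 6.80 and 6.86 with LY294002, against 6.88, 6.91 and 6.88 with DMSO, a difference of -0.07 ± 0.03 (SE).

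SLC2A1, the widely expressed glucose carrier GLUT1, was at 7.79 and 7.95 with LY294002, against 7.95, 7.95 and 7.99 with DMSO. LY294002 replicate 2 held the same value as 2 of the DMSO arrays, so the groups overlapped. The difference was -0.10 ± 0.06 (SE, limma adjusted p = 0.445), and the 95% interval ran from -0.25 to 0.06. The other 4 sugar carriers above the array median lay between -0.05 and 0.05. The neuronal type glucose carrier GLUT3, SLC2A3, was below the array median at 5.96 and 5.76 with LY294002, against 5.44, 5.70 and 5.58 with DMSO, and no claim is made for it. The class median was -0.06, with 6 of 8 genes below 0 and none past the threshold. SLC2A4RG matches the symbol pattern but is a DNA-binding protein named for the GLUT4 gene; it was at 7.53 and 7.10 with LY294002, against 6.67, 6.94 and 7.04 with DMSO (difference 0.43 ± 0.18 SE, limma adjusted p = 0.338). That difference was 0.22 with LY294002 replicate 1 left out and 0.65 with LY294002 replicate 2 left out.

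Monocarboxylate carriers were thinly covered, with 4 genes measured. SLC16A5 alone reached the array median, through its DMSO mean only (6.30, against a mean of 6.26 with LY294002), so the sign of its difference is tied to the brightness limit. It was at 6.22 and 6.31 with LY294002, against 6.33, 6.28 and 6.28 with DMSO. The groups overlapped, and the difference was -0.03 (limma adjusted p = 0.674). The nearest gene outside the brightness limit was SLC1A7, a glutamate carrier, with means of 6.27 with LY294002 and 6.26 with DMSO and overlapping values. SLC16A7, a high-affinity pyruvate and lactate carrier, was far below the array median, at 4.35 and 4.68 with LY294002, against 4.85, 4.81 and 4.73 with DMSO. The main lactate carriers SLC16A1 and SLC16A3 are not analysed here.

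Of 28 amino acid carriers, 12 reached the array median. Their groups overlapped in 9 and not in 3 (25%, against 40.7% of all genes above the array median). Of the 12, 1 lay lower with LY294002 (8.33%, against 15.7%) and 2 higher (16.7%, against 25.0%). SLC1A5, the neutral amino acid exchanger that takes up glutamine, was at 6.41 and 6.50 with LY294002, and at 6.69, 6.56 and 6.57 with DMSO. Among the 12, this was the 1 carrier with both treated arrays below all solvent arrays, at a difference of -0.16 ± 0.06 (SE, limma adjusted p = 0.279). Higher with LY294002 on both arrays were SLC38A2 and SLC1A4. SLC38A2, a sodium-coupled neutral amino acid carrier known to respond to amino acid shortage, was at 9.73 and 9.43 with LY294002, against 9.42, 9.30 and 9.31 with DMSO. The gap between LY294002 replicate 2 and DMSO replicate 1 was narrow, and the difference was 0.24 ± 0.10 (SE, limma adjusted p = 0.367), or 0.09 with LY294002 replicate 1 left out and 0.39 with LY294002 replicate 2 left out. SLC1A4, a carrier of serine and alanine, was at 8.25 and 8.23 with LY294002, against 8.15, 8.08 and 7.93 with DMSO (difference 0.19 ± 0.07 SE, limma adjusted p = 0.325).

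The leucine exchanger LAT1 is made of the light chain SLC7A5 and the heavy chain SLC3A2. SLC7A5 was at 8.24 and 7.86 with LY294002, and at 8.74, 8.24 and 8.25 with DMSO. DMSO replicate 1 stood above the other arrays and LY294002 replicate 2 below them, while the other 3 arrays were level. The difference was -0.36 ± 0.21 (SE, limma adjusted p = 0.443), or -0.19 with DMSO replicate 1 left out and -0.17 with LY294002 replicate 2 left out. SLC3A2 was at 7.95 and 7.88 with LY294002, against 8.19, 7.86 and 7.95 with DMSO. Its difference of -0.08 ± 0.11 (SE, limma adjusted p = 0.673) became 0.01 without DMSO replicate 1. SLC7A11, the cystine and glutamate exchanger, lay below the array median at 5.50 and 5.59 with LY294002, against 6.28, 5.79 and 5.71 with DMSO, where replicate 1 was again the highest array. SLC38A1, a glutamine carrier, was at 9.66 and 9.35 with LY294002, against 9.90, 9.97 and 9.49 with DMSO (difference -0.28 ± 0.18 SE, limma adjusted p = 0.460). With LY294002 replicate 2 left out it was -0.12, and with LY294002 replicate 1 left out -0.44. SLC7A1, a carrier of arginine and lysine, was below the array median, at 5.20 and 5.21 with LY294002, against 5.51, 5.39 and 5.24 with DMSO. The other 6 amino acid carriers above the array median lay between -0.08 and 0.06, and the class median was -0.04.

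The mitochondrial SLC25 family had the highest share of genes above the array median of the 5 classes compared, 12 of 14. SLC25A5, the adenine nucleotide carrier ANT2 that exchanges ADP for ATP, was at 11.36 and 11.30 with LY294002, and at 11.53, 11.58 and 11.55 with DMSO. The gap between groups was wider than the spread inside either, at a difference of -0.22 ± 0.03 (SE, limma adjusted p = 0.0758, 95% interval -0.32 to -0.13). SLC25A3, the phosphate carrier that feeds ATP synthesis, was at 11.49 and 11.55 with LY294002, against 11.72, 11.70 and 11.66 with DMSO. Its difference was -0.17 ± 0.04 (SE, limma adjusted p = 0.129). In folds these differences were 1.17-fold and 1.13-fold, both lower with LY294002.

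SLC25A15, the ornithine carrier of the urea cycle, was at 7.90 and 7.91 with LY294002, and at 8.10, 8.39 and 8.59 with DMSO. The treated arrays were nearly equal and the solvent arrays spread, and the difference was -0.46 ± 0.15 (SE, limma adjusted p = 0.255). SLC25A11, the oxoglutarate and malate carrier, was at 7.33 and 7.47 with LY294002, against 7.48, 7.61 and 7.56 with DMSO, where LY294002 replicate 2 came close to DMSO replicate 1 (difference -0.15 ± 0.06 SE, limma adjusted p = 0.358). SLC25A40, tied to mitochondrial glutathione import, was the 1 member of the class with both treated arrays above all solvent arrays. That share was 8.33%, against 25.0% of all genes above the array median. SLC25A40 was at 6.64 and 6.67 with LY294002, against 6.55, 6.55 and 6.52 with DMSO (difference 0.11 ± 0.03 SE, limma adjusted p = 0.169). SLC25A4, the adenine nucleotide carrier ANT1 of heart and muscle, was at 6.57 and 6.32 with LY294002, against 6.29, 6.32 and 6.20 with DMSO, and the groups overlapped. It reached the array median through its LY294002 mean only. The other 6 lay between -0.10 and 0.09. Of these, SLC25A20 alone had groups that did not overlap. SLC25A20 was at 7.34 and 7.35 with LY294002, against 7.51, 7.45 and 7.37 with DMSO. In the class the groups did not overlap in 6 of 12 genes (50%, against 40.7% of all genes above the array median). Both treated arrays lay below all solvent arrays in 5 of the 12, or 41.7% against 15.7%. The class median was -0.03, or -0.16 over its 6 members at least 1 log2 unit above the array median.

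Of the 12 metal carriers, 8 reached the array median, and in 5 of these the groups did not overlap, 3 lower and 2 higher with LY294002, where 40.7% of all genes above the array median did not overlap, 15.7% lower and 25.0% higher. SLC30A9, a zinc carrier of mitochondria, was at 7.11 and 6.94 with LY294002, and at 6.67, 6.58 and 6.57 with DMSO. Both treated arrays lay clearly above the solvent arrays, at a difference of 0.42 ± 0.07 (SE, limma adjusted p = 0.0809), or 1.33-fold, with a 95% interval of 0.24 to 0.60. Over the other settings with moderated variance its limma adjusted p ran from 0.0177 to 0.348. SLC11A2, the iron carrier DMT1, was at 7.34 and 7.31 with LY294002, against 7.18, 7.25 and 7.25 with DMSO (difference 0.10 ± 0.04 SE, limma adjusted p = 0.303).

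SLC39A8, which imports zinc and manganese, was at 7.31 and 6.73 with LY294002, and at 7.36, 7.71 and 7.44 with DMSO. LY294002 replicate 1 was just under the lowest solvent array and replicate 2 far under it. The difference of -0.48 ± 0.21 (SE, limma adjusted p = 0.362) was -0.19 with replicate 2 left out and -0.77 with replicate 1 left out. SLC11A1, a metal carrier of phagosomes, was at 6.24 and 6.36 with LY294002, against 6.44, 6.51 and 6.74 with DMSO (difference -0.26 ± 0.11 SE, limma adjusted p = 0.325). SLC30A3, a zinc carrier of synaptic vesicles, was at 8.08 and 8.03 with LY294002, against 8.31, 8.17 and 8.16 with DMSO (difference -0.16 ± 0.06 SE, limma adjusted p = 0.292). SLC39A1, a zinc importer of the cell surface, was at 7.57 and 7.38 with LY294002, against 7.63, 7.57 and 7.49 with DMSO, and the groups overlapped. The copper importer SLC31A1 was far below the array median, at 4.71 and 4.65 with LY294002, against 4.66, 4.68 and 4.62 with DMSO. The remaining 2 metal carriers above the array median were at -0.06 and -0.03, and the class median was -0.07.

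**Figure D2:**
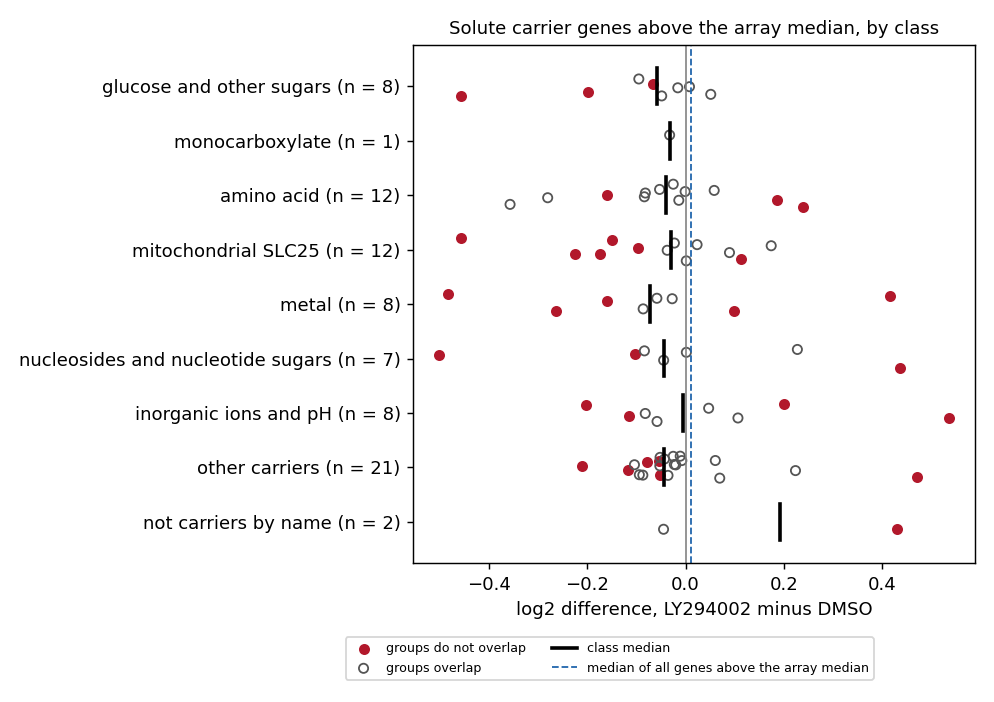
Log2 difference of LY294002 minus DMSO (x axis) for the 79 genes of the set above the array median, by class. The group not carriers by name holds 2 of them. Filled points are genes whose groups do not overlap. Bars are class medians, and the dashed line is the median of all genes above the array median. The medians of sugars, amino acids, SLC25 and metals lie between -0.07 and -0.03, the monocarboxylate bar is 1 gene, and single genes lie on either side of 0 in each class with more than 1 gene.

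The class medians were -0.06 for sugars, -0.04 for amino acids, -0.03 for SLC25 and -0.07 for metals, and the monocarboxylate class has no median beyond its 1 gene. They moved with single arrays: without LY294002 replicate 1 they were -0.03 for sugars, -0.02 for amino acids, -0.06 for SLC25 and -0.18 for metals, and without LY294002 replicate 2 they were -0.07, -0.06, -0.03 and -0.05 in the same order. The median was -0.04 over all 79 genes and 0.01 over the 3965 genes of the array above the same limit. Below 0 were 55 of the 79 genes, or 69.6%, against 46.7% of all genes above the limit. Among all 169 the count was 119, or 70.4%, against 55.5% of all 7713 genes. Without LY294002 replicate 1 the share of the 79 below 0 was 58.2%, against 46.5% of all genes above the limit. The median of the 79 was then -0.02. The 2 shares were 69.6% and 50.5% after cyclic loess, and 73.4% and 56.3% after quantile normalization. Relative to the DMSO means, the median of the 79 was -0.06 on LY294002 replicate 1 and -0.02 on LY294002 replicate 2, and between -0.01 and 0.00 on the DMSO arrays. Replicate 2 with LY294002 was thus close to DMSO replicate 3. LY294002 replicate 1 also has the highest upper quartile of the arrays, 7.69 against 7.59 to 7.62 on the others, and its part in this shift was not tested.

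The carriers of inorganic ions and acid-base balance had 8 of 30 genes above the array median. SLC4A2, which exchanges chloride for bicarbonate, was at 8.61 and 8.33 with LY294002, and at 8.11, 7.93 and 7.75 with DMSO. Its groups were apart but each was spread, and the difference was 0.54 ± 0.14 (SE, limma adjusted p = 0.169), or 1.45-fold, with a 95% interval of 0.16 to 0.91. SLC26A2, a sulfate carrier, was at 6.57 and 6.53 with LY294002, against 6.33, 6.50 and 6.21 with DMSO (difference 0.20 ± 0.09 SE, limma adjusted p = 0.391). SLC20A1, a sodium-coupled phosphate carrier, was at 8.24 and 7.91 with LY294002, against 8.26, 8.33 and 8.24 with DMSO. LY294002 replicate 2 carried that difference of -0.20 ± 0.11 (SE, limma adjusted p = 0.431), which was -0.04 without it. SLC24A2, a sodium, calcium and potassium exchanger, was at 8.00 and 7.97 with LY294002, against 8.05, 8.23 and 8.03 with DMSO. SLC12A2, the sodium, potassium and chloride carrier NKCC1, was at 6.76 and 6.84 with LY294002, against 6.70, 6.80 and 6.76 with DMSO, and the groups overlapped. The other 3 lay between -0.08 and 0.11, and the class median was -0.01.

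Among the 51 carriers of other substrates, 21 reached the array median. SLC5A6, the sodium-coupled carrier of biotin and pantothenate, was at 8.34 and 8.41 with LY294002, and at 8.61, 8.61 and 8.54 with DMSO. The groups were apart by more than the spread inside either, at -0.21 ± 0.04 (SE, limma adjusted p = 0.110, 95% interval -0.32 to -0.10). SLC5A3, the sodium-coupled myo-inositol carrier, was at 8.88 and 8.85 with LY294002, against 8.46, 8.65 and 8.06 with DMSO. The treated arrays were close together and the solvent arrays spread, and the difference was 0.47 ± 0.19 (SE, limma adjusted p = 0.315, 95% interval -0.02 to 0.97). SLC19A1, the reduced folate carrier, was at 7.29 and 7.31 with LY294002, against 7.33, 7.34 and 7.39 with DMSO, a difference of -0.05 ± 0.03 (SE). SLC15A3, a peptide and histidine carrier of lysosomes, was at 6.54 and 6.51 with LY294002, against 6.54, 6.60 and 6.78 with DMSO (difference -0.12 ± 0.08 SE, limma adjusted p = 0.466). The other 17 lay between -0.10 and 0.22. Among them the groups of SLC6A13 and SLC10A2 did not overlap, with the LY294002 arrays lower. In the class the groups did not overlap in 6 of 21 genes (28.6%, against 40.7% of all genes above the array median). Of the 21, 5 lay lower (23.8%, against 15.7%) and 1 higher (4.76%, against 25.0%).

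**Figure D3:**
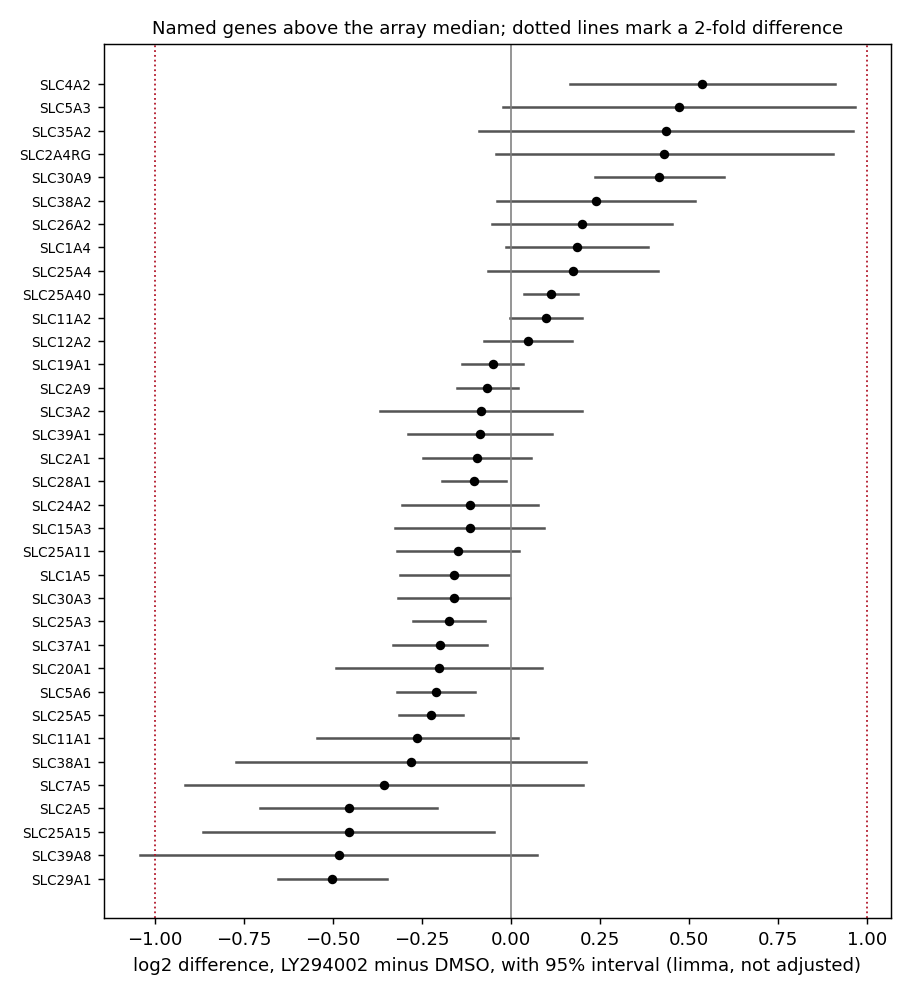
Log2 difference of LY294002 minus DMSO (x axis, points) with its unadjusted 95% limma interval (bars) for the named genes above the array median; dotted lines mark a 2-fold difference. SLC39A8 has the one interval that crosses a dotted line, from -1.04 to 0.07.

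A value above the array median is not a detection call. The set includes carriers known for single tissues, and 6 chosen after their values were seen were read above the limit: SLC10A1 of hepatocytes, SLC10A2 of ileum, SLC22A2 and SLC5A2 of kidney, SLC5A5 of thyroid and SLC6A2 of noradrenergic neurons. Their means ran from 6.34 to 7.98 with LY294002 and from 6.37 to 8.02 with DMSO, and their differences from -0.10 to -0.02. Beta globin, HBB, was at a mean of 8.01 with LY294002 and 7.99 with DMSO. All 4 T cell markers measured were above the limit (6.55 to 8.71 with LY294002 and 6.71 to 8.80 with DMSO). So were all 9 markers of Hodgkin and Reed-Sternberg cells, TNFRSF8 (CD30) included, at 6.04 to 10.29 with LY294002 and 6.40 to 10.42 with DMSO. CCL17 was above the limit through its DMSO mean only. Monocyte markers were not (2 measured, 5.59 to 5.86 with LY294002 and 5.65 to 5.81 with DMSO), nor were the B cell receptor genes CD79A and CD79B. The B cell marker MS4A1 (CD20) was above it, at a mean of 9.42 with LY294002 and 10.42 with DMSO. Of 3 fibroblast markers COL1A1 alone was above it, at 6.33 with LY294002 and 6.90 with DMSO.

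Identical values recur in the deposited table. In 22 of the 79 genes at least 2 arrays of a group held the same value, among them SLC2A1, SLC2A9, SLC11A2 and SLC25A40. The SE of these 22 had a median of 0.042, with a range of 0.026 to 0.12, and that of the other 57 a median of 0.072, with a range of 0.032 to 0.21. Probe sets of 29 of the 79 carry a suffix given to probe sets that can match more than 1 transcript, SLC29A1, SLC2A5, SLC25A3, SLC7A5 and SLC39A8 included.

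**Figure D4:**
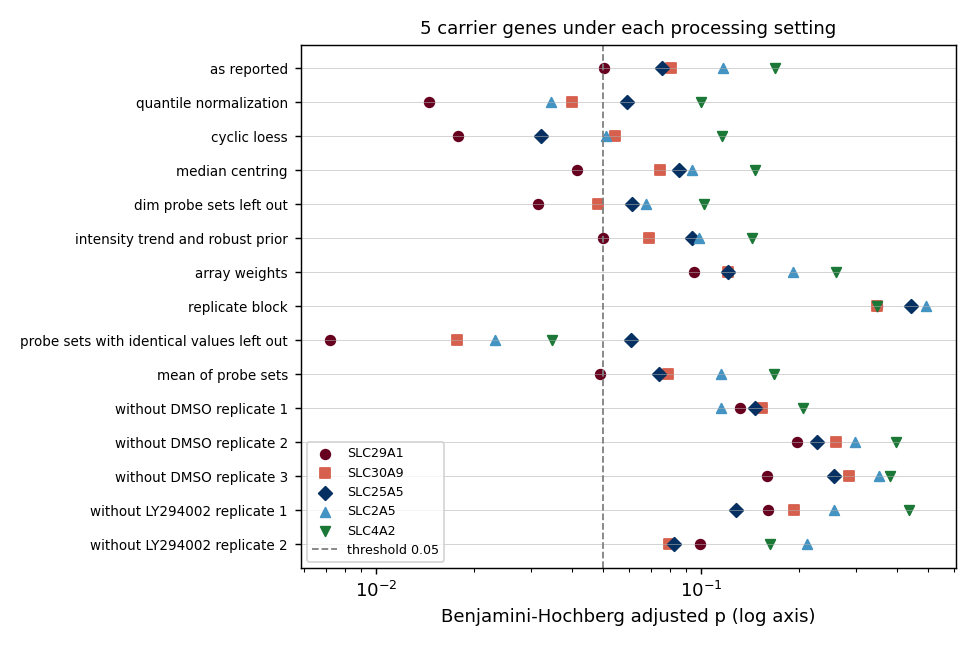
Benjamini-Hochberg adjusted p (x axis, log scale) of 5 carrier genes under each processing setting with moderated variance, with the threshold of 0.05 as a dashed line. SLC29A1 lies at 0.0504 as reported. No gene lies left of the line when any 1 DMSO array is left out, in fits with fewer residual degrees of freedom.

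The proteins that work beside these carriers were taken from a list of 24 genes, of which 16 had a probe set. All of these but MT1G reached the array median. Of the 16, 1 passed, against 0.908% of all genes and 1.59% of those above the array median. In 5 the groups did not overlap, against 29.6% of all genes and 40.7% of those above the array median. LDHA, the lactate dehydrogenase that makes the cargo of the monocarboxylate carriers, was the one that passed, at 11.03 and 11.01 with LY294002, against 11.71, 11.69 and 11.72 with DMSO. It fell by 0.69 on the log2 scale (± 0.03 SE, limma adjusted p = 0.00626). HK2, the hexokinase that traps glucose after entry, was at 7.09 and 6.78 with LY294002, against 8.07, 7.79 and 7.78 with DMSO. Its difference was larger, -0.95 ± 0.14 (SE), with a limma adjusted p of 0.0730, so it did not pass. VDAC1, the channel of the outer mitochondrial membrane, was at 9.98 and 9.78 with LY294002, against 10.16, 10.32 and 10.13 with DMSO (difference -0.32 ± 0.09 SE, limma adjusted p = 0.199).

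TFRC, the transferrin receptor that brings iron to SLC11A2, was at 10.95 and 10.82 with LY294002, against 11.15, 11.09 and 11.07 with DMSO (difference -0.22 ± 0.05 SE, limma adjusted p = 0.158). ASNS, which makes asparagine, was at 7.72 and 7.61 with LY294002, against 8.69, 8.02 and 7.82 with DMSO, where replicate 1 was again the highest array. In the other 11 the groups overlapped. BSG, the chaperone of the lactate carriers, was at 8.86 on both LY294002 arrays, against 8.78, 8.89 and 8.86 with DMSO. The metallothioneins MT1G, MT1H, MT1X and MT2A, which respond to zinc, lay between -0.03 and 0.09, and the zinc-sensing factor MTF1 was at 0.06 ± 0.05 (SE). The mitochondrial pyruvate carrier subunit MPC1 was at -0.01 ± 0.07 (SE), and TXNIP, which restrains glucose uptake, at 0.01 ± 0.05 (SE).

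Of the 90 carrier genes below the array median, 64 had a difference below 0. This is 71.1% of them, against 64.8% of all 3748 genes below the array median. Both treated arrays lay below all solvent arrays in 16 of them (17.8%, against 11.0% of all genes below the array median) and above in 1, which was SLC2A3 (1.11%, against 6.78%). Dim probe sets can show little difference, and no claim rests on them.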

How the data were processed

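Values are the probe set values of 5 arrays on a log2 scale as deposited, which the authors made with affy, an R package, as the submitters' processing notes say; its version, the background correction and the way probes were summarised remain unstated in the sources used here. They were used unchanged. The 47 control probe sets were left out of 8793, and limma 3.58.1 (R 4.3.3) compared LY294002 with DMSO on the other 8746, with the group as the only term, 3 residual degrees of freedom, and Benjamini-Hochberg adjustment over all of them at 0.05. Gene names came from the platform annotation, and all 169 symbols match RefSeq; 4 probe sets that share an SLC symbol with another gene were left out. Members, classes and lists were chosen with earlier results of these data known. Named genes are, among those above the array median without overlap between groups, the 3 highest and 3 lowest of each of the 5 main classes (2 and 2 of the others), and a list fixed by name, of which SLC16A1, SLC16A3, SLC25A1, SLC25A6, SLC30A1 and SLC40A1 are not analysed here. SLC16A5, SLC16A7 and SLC1A7 were chosen after their values were seen. Classes are described by counts and medians, with no test. Differences were simulated on 10 tables of 8746 probe sets. Of those of 0.5 on the log2 scale 84.8% passed, with 98.3% of those of 1 and 100% of those of 2. The noise of these tables came from spreads that limma had already moderated. On the measured arrays HK2 at -0.95 and MS4A1 at -1.00 did not pass (limma adjusted p = 0.0730 each), while LDHA at -0.69 and IRF4 at 0.66 did. The simulated shares therefore do not give the chance that a carrier difference of 0.5 or 1 would pass here. The number of arrays limits the precision. Alternatives were quantile, cyclic loess and median scaling, a filter on the dimmest 40%, array weights, no variance moderation, a robust prior with an intensity trend, a replicate block, removal of probe sets with identical values, the mean of probe sets, other brightness limits and each array left out. Figures were drawn with matplotlib 3.10.9.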

Additional observations from a re-analysis of the deposited data

How the results depend on the processing

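The count of carrier genes past the threshold was 0 in both directions as reported, with array weights and with no filter on brightness. It was also 0 with the replicate block, without variance moderation and without any 1 DMSO array (0 to 0). These last fits have fewer residual degrees of freedom or an unmoderated spread, and so less power to call a gene. Their count of 0 does not show that the result is stable. Higher with LY294002, 1 gene (SLC30A9) passed after quantile normalization and 1 without dim probe sets, and 2 (SLC30A9 and SLC4A2) passed without probe sets that hold identical values. Lower, 2 passed after quantile normalization and 2 without identical values (SLC29A1 and SLC2A5 in both), and 2 after cyclic loess (SLC29A1 and SLC25A5). SLC29A1 alone was lower after median centring (1), without dim probe sets (1), with a robust prior and intensity trend (1) and with probe sets averaged per gene (1). Removing probe sets with identical values leaves 57 of the 79 genes. The cause of these calls was not tested.

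Class medians stayed at or below 0 under every setting run except the monocarboxylate class, a single gene, which was 0.011 without LY294002 replicate 1. After quantile normalization they were -0.082 for sugars, -0.040 for monocarboxylates, -0.076 for amino acids, -0.068 for SLC25 and -0.11 for metals. The median of all genes above the limit was then -0.026. Without identical values sugars were at -0.12 and SLC25 at -0.10. Sugars were at -0.032 with no filter on brightness and -0.095 at least 1 log2 unit above the limit, where SLC25 was at -0.16. SLC25 was at -0.044 with array weights and -0.047 with the replicate block. Leaving out each array gave ranges of -0.074 to -0.027 for sugars, -0.076 to 0.011 for monocarboxylates, -0.063 to -0.014 for amino acids, -0.056 to -0.022 for SLC25 and -0.18 to -0.051 for metals, the metal value of -0.18 without LY294002 replicate 1. Counting SLC2A4RG among the sugars, an alternative added after seeing the data, changed that median by less than its spread. Among named genes, 3 turned sign: SLC3A2 was 0.0086 without DMSO replicate 1 (-0.15 when DMSO replicate 2 was left out). SLC39A1 ran from -0.18 to 0.0058, its value without LY294002 replicate 2, and SLC31A1 from -0.00014 without LY294002 replicate 1 to 0.058 without LY294002 replicate 2. Leaving out 1 array moved the difference by over 1.5 times in 24 of the 39 named genes; in the other 15, SLC29A1, SLC2A5, SLC25A5, SLC30A9, SLC4A2 and SLC5A6 among them, it moved by less. The labels name no batch for the replicate numbers. Same-numbered arrays had deviations that correlated at 0.0021 and -0.21, and with 2 LY294002 arrays these values are not independent. The block left 0 of 79 genes past the threshold, in a fit with fewer residual degrees of freedom. Neither result can show whether same-numbered arrays shared a batch. In fits with 1 LY294002 array, that array is taken to vary like the DMSO arrays. The number of arrays limits every value here.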
